A study of Homo sapiens with 8 samples.

Results

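The 9 genes described here, ERG, FLI1, ETV2, ETS1, ETS2, ELK3, ETV6, ELF1 and SPI1, encode ETS transcription factors of endothelium and blood. They were represented by the 27 of 54675 probe sets on the array that are annotated to exactly 1 of these symbols. The arrays compared KDR+CD31+ cells, sorted on days 4, 6 and 8 of haematopoietic differentiation, with unsorted undifferentiated cells at day 0, with 2 arrays a group and 8 in all. Every group came from H9, an established human embryonic stem cell line kept on inactivated mouse embryonic fibroblast feeders, and the differentiation medium was serum-free with BMP4. KDR is a receptor of vascular endothelial growth factor, and CD31 is the adhesion molecule encoded by PECAM1. Day 0 cells were not sorted, so the effect of the sort and that of time cannot be told apart in any comparison with day 0. The labels name biological replicates but give no culture or batch for them. The p-values therefore cover the spread seen among these 8 arrays, whose number limits the precision of every value.

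ETS factors bind DNA through a shared ETS domain that reads a GGAA core. ERG and FLI1 are close relatives that keep endothelial identity and the blood stem cell programme going, and in the mouse Etv2 acts briefly at the origin of blood and vessel precursors. SPI1 encodes PU.1, a master factor of myeloid and B cells. ETS1 and ETS2 are a related pair regulated by RAS and ERK signalling. ELK3 is a ternary complex factor of serum response genes that can act as a repressor, ETV6 is a repressor needed for blood formation in the bone marrow of mice, and ELF1 is expressed in endothelium and lymphoid cells.

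Levels are given as log2(intensity + 32), called log2 intensity below, for the first and second array of each group. On this scale the median of an array lay between 6.92 and 6.97, and folds computed on it understate the change of dim probe sets. No level is compared between probe sets. Of the 27 probe sets, 22 lay above the array median on at least 2 arrays and were tested, in 7 of the 9 genes. Both day 0 arrays were above the median for 11 of these 22, 1 day 0 array for 2, and none for 9, so those 9 passed only through the sorted arrays and had to be higher there. The 5 probe sets that did not pass were the only ones of ETV2 and SPI1 and 3 of the 6 for FLI1.

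The sorted cells carried the gate genes and endothelial markers. KDR was higher by 4.59 ± 0.17 at day 4 than at day 0 and PECAM1 by 6.42 ± 0.35 (log2 change ± SE, limma), and all 6 endothelial markers rose while all 5 markers of undifferentiated cells fell in each comparison with day 0. PTPRC, which encodes the leukocyte antigen CD45, stayed below the array median on all 8 arrays. It is 1 of 5 leukocyte markers, of which 3 lay above the median on each day 0 array. On the sorted arrays 4 and 2 (day 4), 3 and 2 (day 6) and 4 and 2 (day 8) did. Of the 4 tested, 0 rose at days 4 and 6 and 1 at day 8, beside 7.05%, 8.41% and 8.86% of all probe sets tested. The first arrays of day 4 and of day 6 differed from the remaining sorted arrays. Plasma protein genes of endoderm and yolk sac summed to 2788 units on the first and 21183 on the second array at day 4, to 537 and 6409 units at day 6 and to 12526 and 9490 units at day 8, against 874 and 913 units at day 0. The ratio of the 3′ to the 5′ ACTB control, a sign of RNA quality, ranged from 9.18 to 31.0 on the sorted arrays. It was highest on replicate 1 of day 6, against 8.92 and 10.4 at day 0. The same ratio for GAPDH ranged from 2.15 to 3.73 on the sorted arrays, against 1.71 and 1.91 at day 0. It was highest on the day 6 arrays, at 3.73 and 3.41. The part of the plasma protein genes or of RNA quality in the changes of the ETS genes was not tested.

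DNA upstream of the transcription starts was examined for the letters that ETS factors read. RefSeq windows (GRCh38.p14) were available for 6 of the 9 genes, 13 in all, and the 250 bases before the start were used. FLI1, ETS1 and SPI1 had none. Shown are 2 of the ERG windows, because ERG lay below the array median at day 0 and far above it on every sorted array, and the ETV2 window, because ETV2 stands at the head of this family in the mouse embryo and was not measured above the filter here. ERG is on the minus strand of chromosome 21, with an upstream start at chr21:38660668-38660917 and a downstream start at chr21:38498505-38498754, and the ETV2 window is chr19:35641495-35641744 on the plus strand. Sequences read 5′ to 3′ on the strand of the gene, with GGAA or its reverse complement TTCC in capitals.
ERG upstream start: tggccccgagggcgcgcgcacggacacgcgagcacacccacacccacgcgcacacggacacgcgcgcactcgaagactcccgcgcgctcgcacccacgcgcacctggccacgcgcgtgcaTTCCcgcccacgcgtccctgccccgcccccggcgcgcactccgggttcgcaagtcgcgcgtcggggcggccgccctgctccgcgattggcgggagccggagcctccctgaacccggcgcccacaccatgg
ERG downstream start: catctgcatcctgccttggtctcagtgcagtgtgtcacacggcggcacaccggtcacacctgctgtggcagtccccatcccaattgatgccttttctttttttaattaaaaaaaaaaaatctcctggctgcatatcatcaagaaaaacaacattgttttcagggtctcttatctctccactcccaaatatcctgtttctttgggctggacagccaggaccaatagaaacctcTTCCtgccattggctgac
ETV2: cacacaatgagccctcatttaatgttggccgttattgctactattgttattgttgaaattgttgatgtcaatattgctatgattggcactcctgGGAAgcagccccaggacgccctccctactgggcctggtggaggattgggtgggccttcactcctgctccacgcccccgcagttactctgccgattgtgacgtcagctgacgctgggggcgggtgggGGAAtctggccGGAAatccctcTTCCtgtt

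The upstream ERG window is GC-rich at 77.2% and holds 1 GGAA core. The downstream ERG window has 46.4% GC and also 1 core, which lies within CAGGAAG. It holds 1 GATAAG, the letters that GATA factors read. The 2 ERG windows not shown hold 4 and 2 cores, and the latter window overlaps the downstream one. The ETV2 window, at 54.8% GC, holds 4 cores, 1 of them within CAGGAAG, and 1 CAGCTG, an E-box. Counted on both strands over 35116 windows of the same length, GGAA occurs in 92.7%, AGGAAG in 28.7%, GGAAGT in 19.5%, CAGGAAG in 10.5%, CCGGAAG in 8.52%, GATAAG in 5.65% and CAGCTG in 14% of windows. The first 5 of these motifs overlap one another by sharing GGAA. A match describes the letters of the window and is not a measured binding site.

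Of the 9 ETS genes, 7 had at least 1 probe set that rose in KDR+CD31+ cells relative to undifferentiated cells, on every sorted day. In each of these comparisons 17 of the 22 tested probe sets rose and 0 fell (limma, adjusted p under 0.05 over all 24898 probe sets tested). The share of all tested probe sets that rose was 7.05% for day 4, 8.41% for day 6 and 8.86% for day 8. Of the 9 probe sets with no day 0 array above the median, 7, 5 and 6 rose at days 4, 6 and 8. Of all tested probe sets with no day 0 array above the median, 22.3%, 26.2% and 28.8% rose at these days. Of the 11 with both day 0 arrays above it, 8, 10 and 9 rose, in 5 genes, beside 5.76%, 6.90% and 7.15% of all tested probe sets with both day 0 arrays above the median. The 3 comparisons share the day 0 arrays and are not independent of each other. In bulk RNA, more cells that express a gene and more RNA per cell cannot be told apart. All 6 sorted arrays lay above both day 0 arrays for 21 of the 22, and ETS1 214447_at was the exception. Among all probe sets tested the share was 21.1%. These figures were not split by day 0 level. Of the 22, 9 had no day 0 array above the median, against 7.31% of all probe sets tested. Such probe sets passed the filter only through sorted arrays, so 21.1% is not a like-for-like background for the members.

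**Figure D1:**
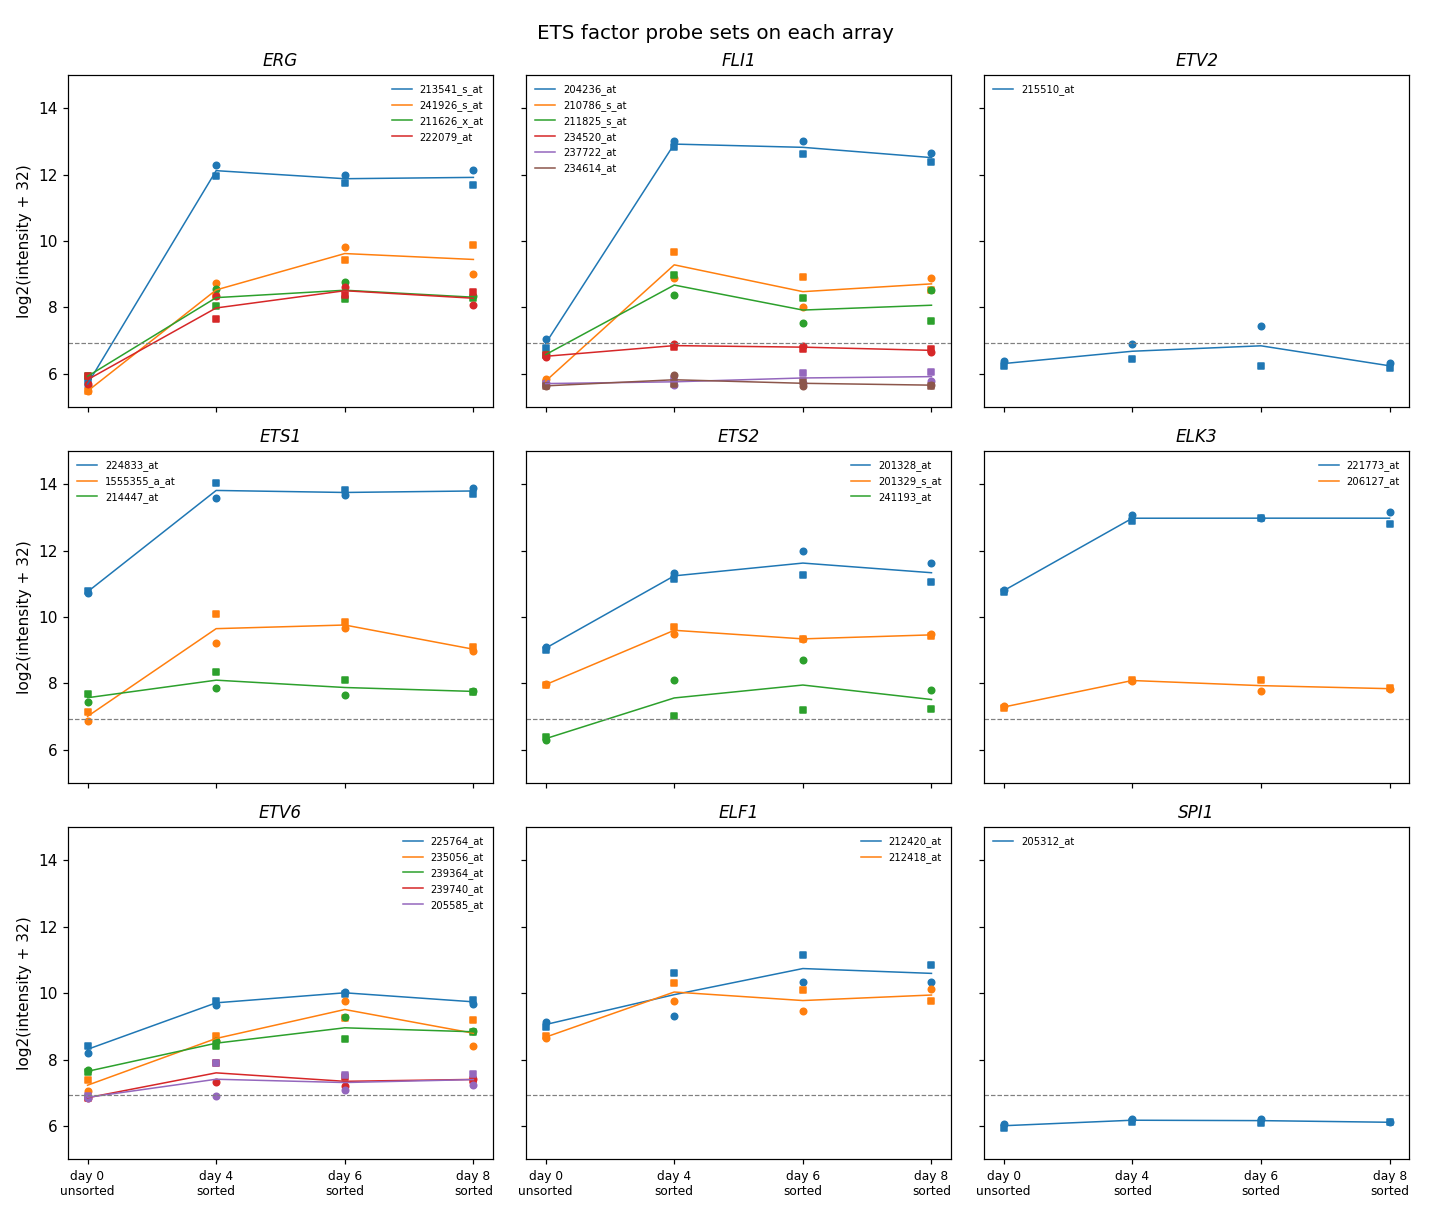
Each panel shows 1 gene, with log2(intensity + 32) on the vertical axis and the 4 groups on the horizontal axis. Circles are replicate 1, squares are replicate 2, lines join the means of 2 arrays, colours mark probe sets, and the dashed line is the array median. Probe set 213541_s_at of ERG lies between 11.70 and 12.28 on all sorted arrays and at 5.63 and 5.75 at day 0, while SPI1 lies below the median throughout.

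ERG, which in adult tissue is largely restricted to endothelium and blood stem cells, had the largest change among the 9 genes on the scale used. Its probe set 213541_s_at had log2 intensities of 5.63 and 5.75 at day 0, then 12.28 and 11.96 (day 4), 12.00 and 11.76 (day 6) and 12.14 and 11.70 (day 8). Neither day 0 array reached the array median, and no sorted array came within 5.95 log2 units of them. At day 4 it was higher than at day 0 by 6.43 ± 0.23 (SE, limma adjusted p = 1.93e-05). The size depends on the offset added to its dim baseline, being 7.75 with the smaller offset tried, of 1 unit, and 4.95 with the larger offset tried. The changes from day 0 were 6.19 ± 0.23 at day 6 and 6.23 ± 0.23 at day 8.

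The other 3 ERG probe sets also rose at each day, with smaller changes. Probe set 241926_s_at had 5.48 on both arrays at day 0, then 8.72 and 8.33 (day 4), 9.82 and 9.43 (day 6) and 9.01 and 9.88 (day 8). Its change from day 0 was 3.05 ± 0.31, 4.15 ± 0.31 and 3.97 ± 0.31 at the 3 sorted days in turn (limma adjusted p from 0.000286 to 0.0011). For 211626_x_at and 222079_at the changes lay between 2.16 and 2.68 over the 3 days. No ERG probe set exceeded the array median at day 0, so the size of each fold rests on a dim baseline.

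FLI1, the closest relative of ERG in this set, changed by a similar amount. Its probe set 204236_at had log2 intensities of 7.04 and 6.79 at day 0, then 13.01 and 12.84 (day 4), 13.02 and 12.63 (day 6) and 12.64 and 12.39 (day 8). The lowest sorted array lay 5.35 log2 units above the higher day 0 array. The change from day 0 was 6.01 ± 0.21, 5.91 ± 0.21 and 5.60 ± 0.21 at the 3 sorted days in turn (limma adjusted p = 1.93e-05, 2.00e-05 and 2.26e-05). With the larger offset its changes of 5.18, 5.08 and 4.78 exceeded those of ERG 213541_s_at at 4.95, 4.71 and 4.75, so the order of the 2 genes rests on the offset.

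FLI1 probe sets disagreed widely in size. Probe set 210786_s_at rose by 3.50 ± 0.36, 2.70 ± 0.36 and 2.93 ± 0.36 at the 3 sorted days in turn. Probe set 211825_s_at rose by 2.10 ± 0.38 at day 4 and 1.49 ± 0.38 at day 8, and its change of 1.34 ± 0.38 at day 6 was not called (limma adjusted p = 0.0506). The remaining 3, 234520_at, 234614_at and 237722_at, lay below the array median on all 8 arrays, between 5.63 and 6.90, and were not tested. The array annotation gives no transcript or exon for these probe sets, so which part of FLI1 each one reads was not analysed here.

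ETS1, a factor of endothelium and lymphocytes, was already well above the array median in undifferentiated cells. Its probe set 224833_at had 10.73 and 10.80 at day 0, then 13.58 and 14.05 (day 4), 13.69 and 13.82 (day 6) and 13.89 and 13.72 (day 8). The 6 sorted arrays spanned 0.47 log2 units, and the change from day 0 was 3.05 ± 0.18, 2.99 ± 0.18 and 3.04 ± 0.18 at the 3 sorted days in turn (limma adjusted p = 0.000109, 0.000116 and 0.000111). Probe set 1555355_a_at rose by 2.64 ± 0.30, 2.75 ± 0.30 and 2.02 ± 0.30 at the 3 days. Probe set 214447_at, in contrast, had changes of only 0.53, 0.31 and 0.19, none of them called, and its day 6 arrays at 7.66 and 8.10 overlapped day 0 at 7.46 and 7.68.

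ETS2, the partner of ETS1 in the RAS-responsive pair, rose less. Its probe set 201328_at had 9.11 and 9.02 at day 0, then 11.32 and 11.16 (day 4), 11.99 and 11.27 (day 6) and 11.63 and 11.05 (day 8). The change from day 0 was 2.18 ± 0.30, 2.57 ± 0.30 and 2.27 ± 0.30 at the 3 sorted days in turn. Probe set 201329_s_at had a similar course with changes of 1.64, 1.38 and 1.50 (SE 0.16 each), and both probe sets were called at every day. Probe set 241193_at differed between replicates, with 8.12 and 7.01 at day 4 and 8.69 and 7.21 at day 6, and its changes of 1.23, 1.62 and 1.18 (SE 0.54 each) were not called.

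ERG, FLI1, ETS1 and ETS2 form 2 pairs of neighbours in the genome, each with 1 gene from either pair of relatives. In the RefSeq gene table ERG and ETS2 lie on chromosome 21 with 2 non-coding genes and no protein-coding gene between them. FLI1 and ETS1 lie on chromosome 11 with 1 non-coding gene and no protein-coding gene between them. In each pair 1 gene had a baseline near or below the array median and a log2 change above 5 in its brightest probe set, and the other was above the median at day 0 and changed by 2.18 to 3.05.

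ELK3, the ternary complex factor, showed the narrowest spread among sorted arrays of the brightest probe sets of the 7 tested genes. Its probe set 221773_at had log2 intensities of 10.82 and 10.77 at day 0, then 13.07 and 12.89 (day 4), 12.99 and 12.98 (day 6) and 13.15 and 12.81 (day 8). The change from day 0 was 2.18 ± 0.16 at each of the 3 days, or 4.54-fold at day 4 (limma adjusted p = 0.000313). Probe set 206127_at rose by 0.80 ± 0.15, 0.64 ± 0.15 and 0.55 ± 0.15 at the 3 sorted days in turn.

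ETV6, the repressor also known as TEL, rose by a smaller amount. Its probe set 225764_at had 8.19 and 8.42 at day 0, then 9.65 and 9.77 (day 4), 10.05 and 9.97 (day 6) and 9.68 and 9.79 (day 8). The change from day 0 was 1.40 ± 0.17, 1.70 ± 0.17 and 1.43 ± 0.17 at the 3 sorted days in turn (limma adjusted p = 0.00267, 0.00106 and 0.00219). Probe set 235056_at was also called at every day, with changes of 1.41, 2.28 and 1.57 (SE 0.31 each).

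The other 3 ETV6 probe sets lay near the thresholds. Probe set 239364_at changed by 0.85 at day 4, which was not called (limma adjusted p = 0.0518), and rose by 1.31 at day 6 and 1.19 at day 8. Probe set 239740_at was called at day 4 only, with a change of 0.75 ± 0.20 (limma adjusted p = 0.0487) that was lost without the filter, without the trend and in most fits that left out an array. Probe set 205585_at was not called at any day, with changes between 0.45 and 0.55, and 1 of its day 4 arrays stood at 6.91, next to 6.82 and 6.89 at day 0.

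ELF1 held the probe set with the widest span over the sorted arrays among all 27. This probe set, 212420_at, had 9.14 and 8.97 at day 0, then 9.32 and 10.59 (day 4), 10.34 and 11.15 (day 6) and 10.34 and 10.85 (day 8), a span of 1.83 over the sorted arrays. The median span over all tested probe sets was 0.65. Its change from day 0 was called only at day 6, at 1.69 ± 0.47 (limma adjusted p = 0.0468), while 0.90 at day 4 and 1.54 at day 8 were not called (limma adjusted p = 0.262 and 0.0598). Without the first arrays of days 4 and 6, which differed from the other sorted arrays, its changes were 1.54, 2.09 and 1.54 at days 4, 6 and 8. The second probe set, 212418_at, rose by 1.36 ± 0.29, 1.10 ± 0.29 and 1.27 ± 0.29 with those arrays included.

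**Figure D2:**
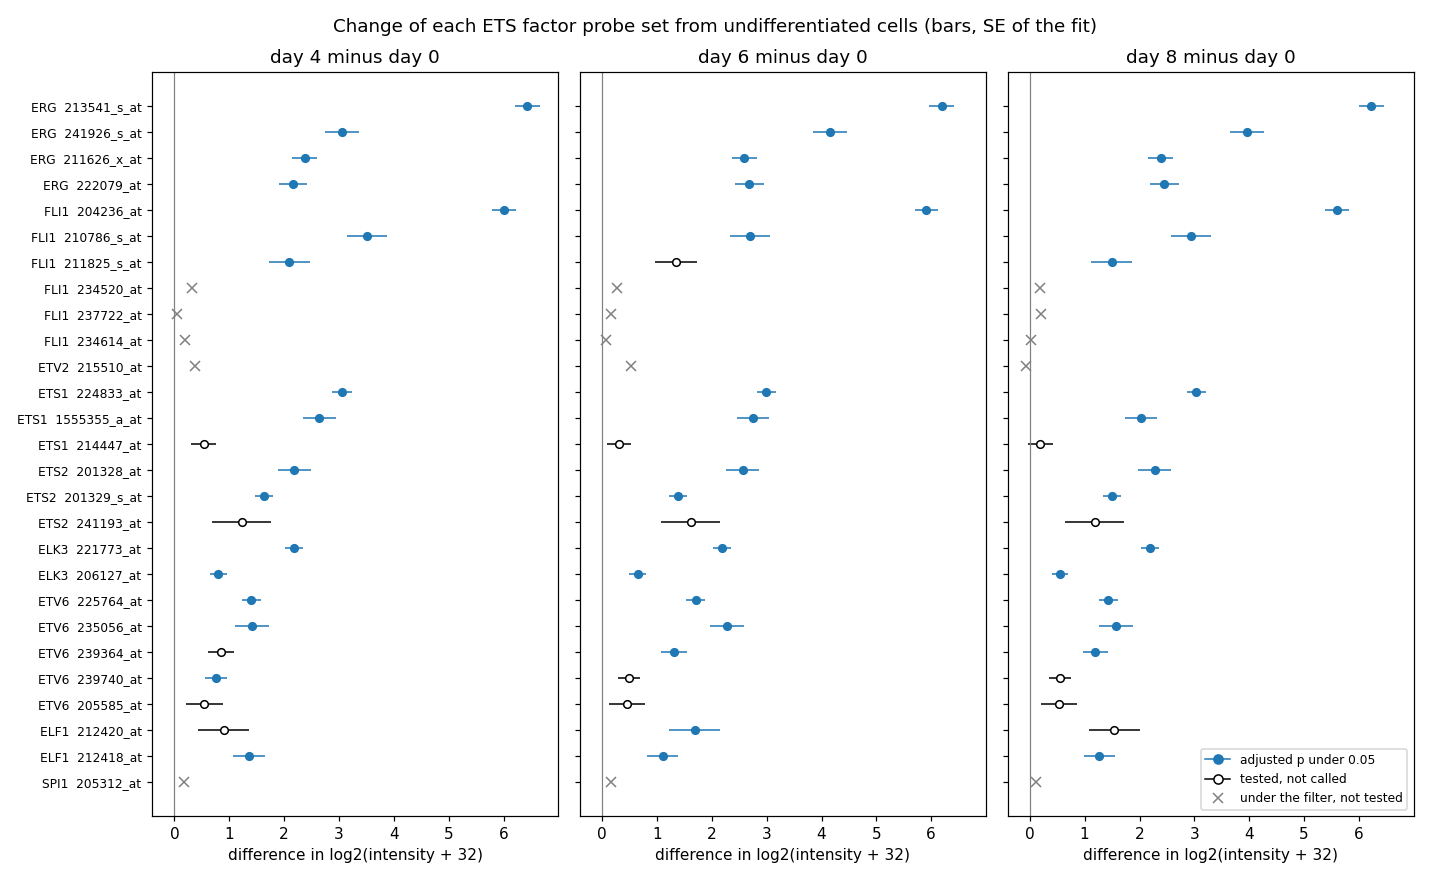
The difference in log2(intensity + 32) from day 0 is plotted for each of the 27 probe sets at day 4, day 6 and day 8, with the SE of the fit over 8 arrays as bars. Filled blue points passed the adjusted p threshold, open black points did not, and grey crosses were under the filter and not tested. Brightest probe sets of ERG and FLI1 lie between 5.60 and 6.43, and the probe sets of ERG and of FLI1 spread over several log2 units.

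ETV2 and SPI1 could not be tested. ETV2 215510_at had log2 intensities of 6.37 and 6.25 at day 0, then 6.91 and 6.45 (day 4), 7.45 and 6.24 (day 6) and 6.31 and 6.17 (day 8). It exceeded the array median on 1 array, replicate 1 of day 6, at 142.9 units, and the other day 6 array lay below both day 0 arrays. In a fit without the filter its change was 0.37 ± 0.36 at day 4 and 0.54 ± 0.36 at day 6, neither called (limma adjusted p = 0.616 and 0.42). With 1 of the 6 sorted arrays above the median, ETV2 did not pass the filter, and detection calls were not used here.

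SPI1 205312_at stayed between 29.4 and 42.6 units on all 8 arrays, below the array median everywhere. Its log2 intensities were 6.07 and 5.94 at day 0, then 6.22 and 6.12 (day 4), 6.22 and 6.10 (day 6) and 6.10 and 6.11 (day 8). Without the filter its changes from day 0 were 0.17, 0.15 and 0.10, with adjusted p of 0.231 at day 4 and 0.24 at day 6 (limma).

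Of the myeloid genes known as PU.1 targets, 6 of 10 were tested, and 3 rose at day 4, 2 at day 6 and 3 at day 8, with 0 falling. With 1 array left out the counts stayed between 2 and 3. Of all probe sets tested, 7.05% to 8.86% rose at these days. LAPTM5, a lysosomal protein of blood cells, rose by 5.40 ± 0.33 at day 4, and BTK, a kinase of B and myeloid cells, rose by 2.58 ± 0.27. FCER1G, the signalling chain of Fc receptors, rose by 0.80 ± 0.18 at day 4. CSF1R, CSF3R and ITGAM, the receptors and integrin of monocytes and neutrophils in the list, had changes between 0.03 and 0.27 that were not called. CSF2RA, CYBB, NCF4 and TYROBP did not pass the filter.

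Between the sorted days 0 of the 22 member probe sets and 0% of all 24898 were called in any of the 3 comparisons (limma). Taking p under 0.05 with no adjustment gave 2 members at day 6 against day 4, 1 at day 8 against day 6 and 1 at day 8 against day 4, beside 5.56%, 2.15% and 6.41% of all probe sets. For the brightest ELK3 probe set the difference of day 8 minus day 4 was 0.00 with a 95% interval of -0.39 to 0.39, and for the brightest ETS1 probe set it was -0.02 with an interval of -0.44 to 0.41. For ERG 213541_s_at it was -0.20 with an interval of -0.74 to 0.34. These intervals leave room for changes of such a size in either direction, so a constant level was not shown. They rest on a spread shared by all groups, day 0 included. For ELK3 221773_at the SD was 0.13 at day 4 and 0.25 at day 8, against 0.04 at day 0 and 0.01 at day 6. The intervals between sorted days may therefore be too narrow.

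ERG 241926_s_at was the member with the largest difference between sorted days. Its day 6 arrays at 9.82 and 9.43 were above its day 4 arrays at 8.72 and 8.33, a difference of 1.10 with a 95% interval of 0.36 to 1.83 (limma adjusted p = 0.842). At day 8 it was higher than at day 4 by 0.92 (limma adjusted p = 0.735). The other ERG probe sets had differences of -0.24, 0.22 and 0.52 between day 6 and day 4, and whether the probe sets differ from each other was not tested.

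All 3 tested FLI1 probe sets were lower at day 8 than at day 4, by amounts that did not pass the test. Probe set 204236_at had 12.64 and 12.39 at day 8 and 13.01 and 12.84 at day 4, groups that do not overlap, and a difference of -0.41 ± 0.21 (limma adjusted p = 0.735). Non-overlapping groups in this direction occurred in 22.2% of all probe sets tested. For 210786_s_at and 211825_s_at the differences were -0.57 ± 0.36 and -0.61 ± 0.38. Other differences with an unadjusted p under 0.05 were those of ETV6 235056_at, at 0.87 ± 0.31 between day 6 and day 4, and of ETS1 1555355_a_at, at -0.73 ± 0.30 between day 8 and day 6.

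**Figure D3:**
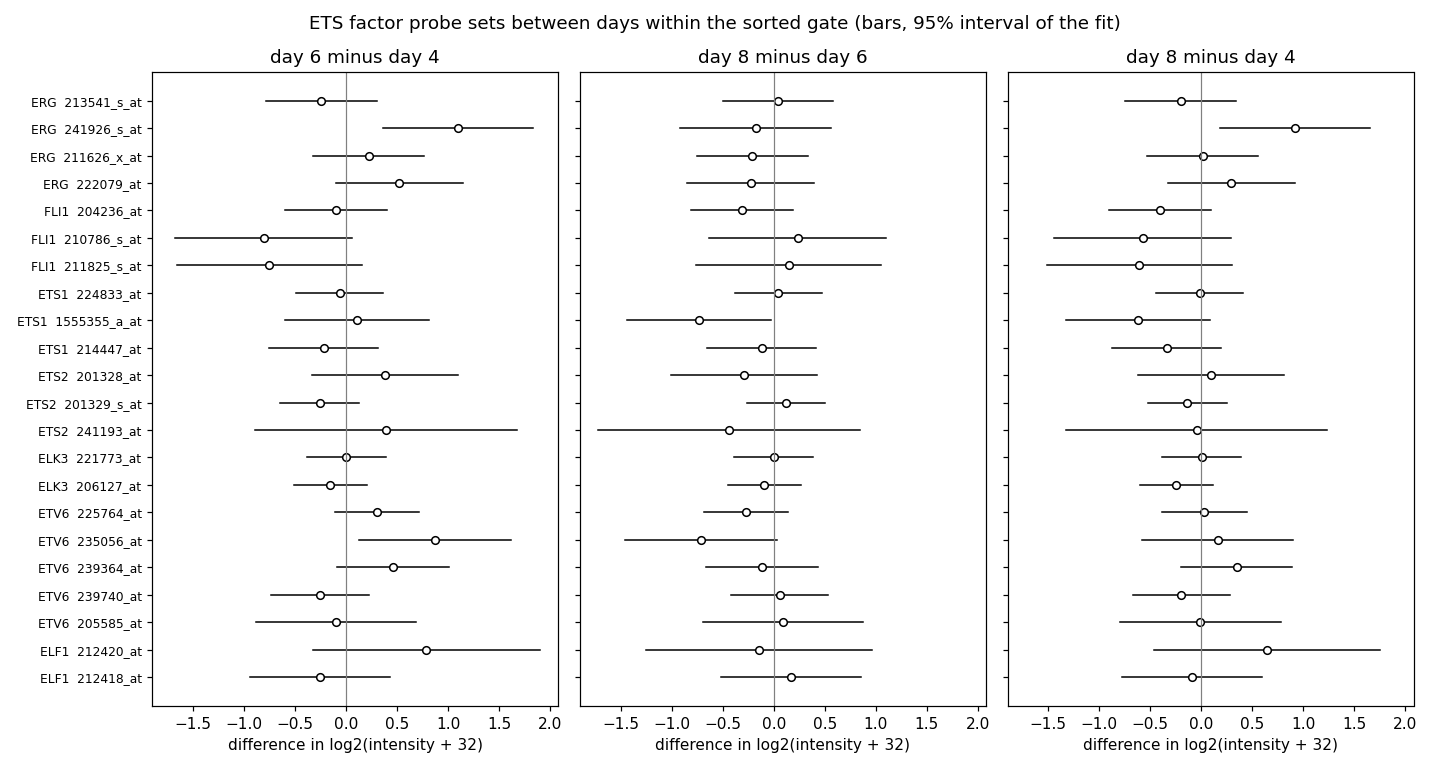
The difference in log2(intensity + 32) between sorted days is plotted for the 22 tested probe sets, with the 95% interval of the fit as a line. No point passed the adjusted p threshold, and intervals of ERG 241926_s_at lie above 0 in the comparisons with day 4, while most others cross 0.

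The rest of the ETS family showed calls in both directions. The list held 19 genes, of which 18 had 56 probe sets, and 31 of these in 12 genes were tested. At day 4 against day 0, 1 probe set rose and 1 fell, at day 6 there were 3 and 1, and at day 8 there were 3 and 2. Over all probe sets tested, 7.05%, 8.41% and 8.86% rose and 8.79%, 11.7% and 12.1% fell at these days. Their median changes were 0.02, 0.03 and -0.07, beside 0.02, -0.01 and -0.02 over all probe sets tested.

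ELF4, a relative of ELF1 in blood cells, was the gene of this group that rose most. Its probe set 31845_at had 9.70 and 9.85 at day 4, against 8.33 and 8.23 at day 0, a change of 1.49 ± 0.31 (limma adjusted p = 0.0193). It stood 1.83 above day 0 at day 6 and 1.71 above at day 8. Probe set 203490_at of ELF4 was called at days 6 and 8, and its change of 1.03 at day 4 was not (limma adjusted p = 0.0755). ETV5, a factor induced by FGF signalling, was called in 1 of its 3 tested probe sets. Probe set 203349_s_at had 8.99 and 9.13 at day 6, against 7.90 and 7.77 at day 0, and rose by 1.22 ± 0.16 at day 6 and 0.83 ± 0.16 at day 8. ELF3, an epithelial member, fell by 0.82, 0.81 and 0.92 at the 3 sorted days in turn (SE 0.11 each).

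ETV1 221911_at differed within groups, with 9.85 and 7.92 (day 4), 10.34 and 8.20 (day 6) and 8.79 and 8.21 (day 8), against 10.49 and 10.37 at day 0. Its arrays with the higher values at day 4 and day 6 are the 2 that differed from the other sorted arrays, and none of its changes was called. With 1 array left out, the number of ETS relatives outside the 9 that rose, counted by their brightest probe set, reached 0 at day 4 without any 1 of the 4 arrays compared, and at day 8 without either day 0 array or replicate 2 of day 8.

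**Figure D4:**
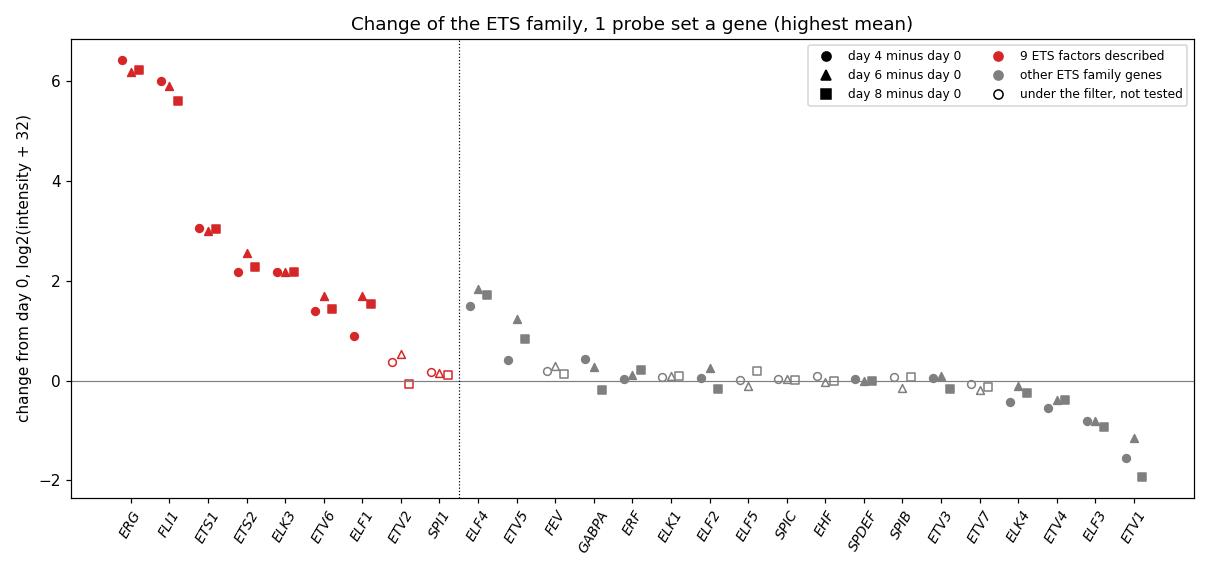
The change from day 0 in log2(intensity + 32) is plotted for 27 ETS family genes, using the probe set with the highest mean for each gene. Circles, triangles and squares stand for day 4, day 6 and day 8, red points for the 9 genes described and grey points for other family members, and open symbols were not tested. ERG and FLI1 lie above 5, ELF4 between 1.49 and 1.83, and most other family members near 0.

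Endothelial genes with described ETS sites rose widely in the sorted cells. Of 20 such genes, each read by its brightest probe set, 16 rose at day 4, 17 at day 6 and 19 at day 8, and 0 fell. Among all probe sets tested, 7.05%, 8.41% and 8.86% rose at these days. The median change of the 20 genes was 2.65, 3.0 and 3.44 at the 3 sorted days in turn. Over all probe sets tested it was 0.02, -0.01 and -0.02. The list was put together with earlier results of these data known, and it includes all the endothelial markers given above. The cells were sorted on KDR and CD31, and no endothelial genes without such sites were set beside the list. Whether the rise goes with ETS sites was therefore not tested. The shares over all probe sets count probe sets in place of genes and were not split by day 0 level. Without either of the day 0 arrays, which leaves that group with no spread of its own, fewer of the 20 were called at each day.

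APLNR, the apelin receptor of early mesoderm and vessels, had 13.04 and 13.01 at day 4, against 7.51 on both arrays at day 0, and rose by 5.51 ± 0.19. TEK, the angiopoietin receptor TIE2, rose by 3.99 ± 0.14 at day 4, and ICAM2, an endothelial adhesion molecule, by 5.44 ± 0.25. ANGPT2, the angiopoietin released by activated endothelium, was the gene of the list not called at any day, with changes of -0.05, 0.59 and 0.75 (limma adjusted p from 0.39 to 0.969). FOXC2, the forkhead partner of ETS factors that had a probe set, was not called either, at 0.92, 0.49 and 0.47.

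The blood stem cell factors that share sites with ERG and FLI1 rose together at all 3 days, 4 of the 4 tested, and 3 of the 4 without either day 0 array. Over all probe sets tested, 7.05%, 8.41% and 8.86% rose at these days. TAL1, the helix-loop-helix factor at the head of blood specification, had 12.20 and 11.53 at day 4, against 6.06 and 6.28 at day 0. It rose by 5.69 ± 0.28. LMO2, its bridging partner, rose by 5.05 ± 0.32, GATA2 by 2.55 ± 0.21 and LYL1, a relative of TAL1, by 1.99 ± 0.33. RUNX1 had no probe set annotated to it alone and was not analysed here.

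Genes of the serum response, the targets of ternary complex factors such as ELK3, had calls only in the downward direction. Of 7 tested, 1 fell at day 4, 4 at day 6 and 0 at day 8, and 0 rose, beside 8.79%, 11.7% and 12.1% of all probe sets that fell. The 1 of day 4 and the 0 of day 8 are near that share. FOS had 10.57 and 10.32 at day 4, against 12.11 and 11.97 at day 0, and fell by 1.60 ± 0.39. At day 6 the 4 that fell were FOS, FOSB, MCL1 and SRF. Without either day 0 array, or without replicate 2 of day 6, the count at day 6 was 1, and without either day 0 array it was 0 at day 4. The counts also moved when arrays of day 4 or day 6 were left out, which leaves those groups with no spread of their own.

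Feedback genes of FGF and ERK signalling, which move with the ETV1, ETV4 and ETV5 group in many tissues, gave a mixed picture. Of 8 tested, 2 rose and 1 fell at day 4, 3 rose at day 6 and 2 rose at day 8. Among all probe sets tested, 7.05%, 8.41% and 8.86% rose and 8.79%, 11.7% and 12.1% fell at these days. SPRY1, an inhibitor of receptor kinase signalling, rose by 1.56 ± 0.27 at day 4, and SPRY3 by 0.81 ± 0.12. IL17RD, an inhibitor of FGF signalling also called SEF, fell by 1.44 ± 0.38 at day 4. DUSP6, the phosphatase of ERK, rose by 1.17 ± 0.29 at day 6. Without replicate 1 of day 0, 0 rose at day 4 and day 8 and 1 rose at day 6. Without replicate 2 of day 0, 1 rose at each of the 3 days, and without replicate 1 of day 8, 1 rose at that day.

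The genes nearest in pattern to each factor were taken as those with the smallest root mean square difference from it over 8 arrays, after the mean of each gene was removed. For 19774 genes compared by their brightest probe set, FLI1 was the nearest to ERG, at 0.26 log2 units, followed by RASGRP3, a RAS activator of endothelium, at 0.27 and TAL1 at 0.31. TAL1 was nearest to FLI1 at 0.25, followed by ERG and by SOX7, an endothelial SOX factor, at 0.29. FRMD4B, ARHGEF3 and PTPRM were nearest to ETS1, at 0.12 to 0.16. For ETS2 they were BMP2K, PKIG and KLF3, at 0.20 each, and for ELK3 they were PKIG, ARAP3 and JAM3, at 0.10 to 0.11. These distances rest mostly on the step between unsorted and sorted cells, and describe these 8 arrays only. ETV2, ETV6, ELF1 and SPI1 varied by less than 2 log2 units between group means and were given no nearest genes.

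**Figure D5:**
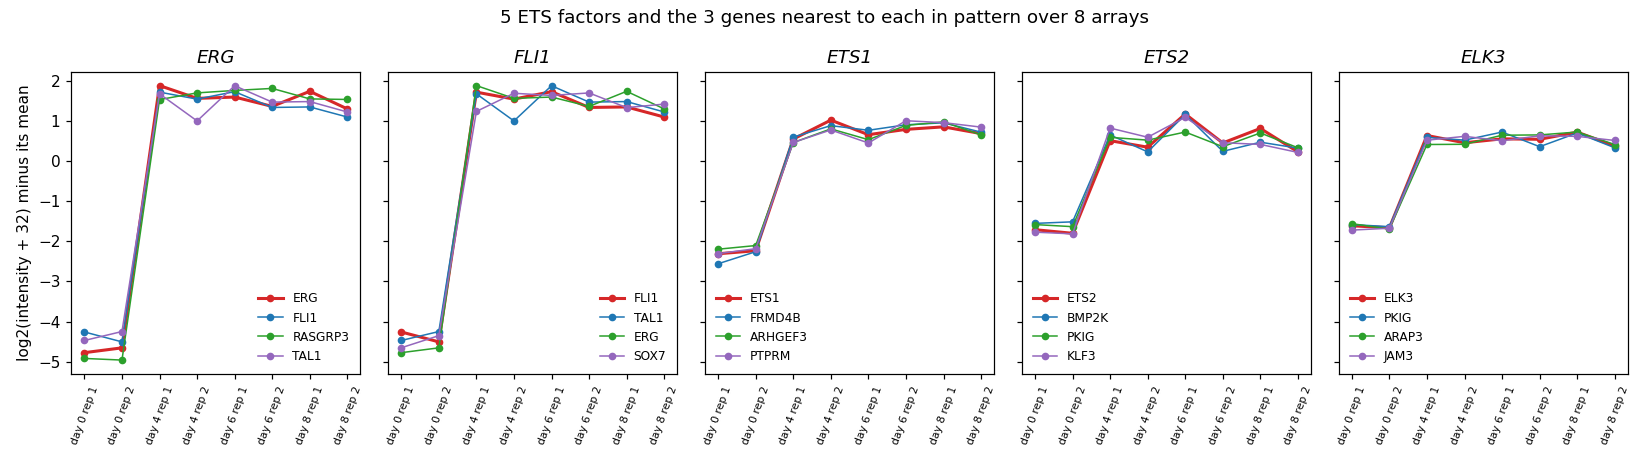
Log2(intensity + 32) minus its mean over 8 arrays is plotted for 5 ETS factors, in red, and for the 3 genes nearest to each, in other colours, with the 8 arrays on the horizontal axis. All 20 lines step up between the day 0 and the day 4 arrays, and within the sorted arrays each set of lines stays close together.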

How the data were processed

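Gene expression of H9 cells was measured on 8 arrays in 4 groups, taken from the sample titles. The source name of 3 later arrays says day 4, against their titles and stages, which were followed. The authors deposited 1 linear intensity per probe set and array, made with MAS5 per the submitters' processing notes, of a version and scaling not given in the sources used here. Array medians ran from 88.7 to 93.2 units and no scaling was added. Values were taken as log2(intensity + 32), with 32 as an offset. The platform annotation names 1 symbol for 41091 of 54675 probe sets.

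The 24898 probe sets that exceeded the median of at least 2 arrays were fitted with limma 3.58.1 in R 4.3.3, with 1 term per group, eBayes with trend (4 residual and 2.73 prior degrees of freedom) and Benjamini-Hochberg adjustment over all of them, two-sided at 0.05, for 6 comparisons. All probe sets of a member were fitted separately. For the gene lists, the probe set with the highest mean was used. In simulated data, 200 of the 24898 probe sets were changed per comparison, with noise drawn independently for each array. The joint deviation of same-numbered sorted arrays was left out of it. Log2 changes of 1, 2, 3 and 4 were recovered in 24%, 68%, 86% and 94% of cases at day 4 against day 0. That comparison had 6 false calls. False calls numbered 6 and 0 for day 6 and day 8 against day 0, and 57, 37 and 24 for day 6 against day 4, day 8 against day 6 and day 8 against day 4. In these last 3 comparisons a change of 1 was recovered in 42%, 34% and 30% of cases, and a change of 4 in 92%, 96% and 100%. Their false calls would exceed a share of 0.05 even if all 200 changed probe sets were recovered. The error rate was thus not held between sorted days in the simulation. Members were named all, and up to 4 genes past the threshold per list at day 4 against day 0, by smallest p, with any others chosen after their values were seen. A gene named by this rule among the endothelial genes is not reported here. The members and lists were chosen with earlier results of these data known. An exact permutation test of 2 arrays against 2 cannot give a two-sided p below 0.333 and was not used. Plots were made with matplotlib 3.10.9 under Python 3.11.15.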

Additional observations from a re-analysis of the deposited data

How the results depend on the processing

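No change of a member probe set that was called reversed its sign under any alternative run, and 0 members were called between sorted days under any of them. The counts of 17 called members at day 4, 6 and 8 against day 0 stayed within 15 to 18 with a smaller or a larger offset, without the filter (of 27 probe sets), with a filter at the 75th percentile (of 17), with quantile normalization, median centring, all probe sets other than controls or no trend. With only the arrays of the groups compared they were 17, 16 and 21. A fit without the first arrays of days 4 and 6 leaves 1 array in each of those groups. Its spread then comes from days 0 and 8 alone. Replicates differed over 2-fold in 2 and 473 probe sets at days 0 and 8, against 1955 and 2262 at days 4 and 6. The counts were higher in that fit, and whether the arrays left out account for this was not tested. Counted per gene over 7 genes they were 6, 7 and 6 with the highest probe set and 6, 7 and 7 with the mean of all probe sets, which counts genes in place of probe sets. Requiring a log2 change above 1 gave 8, 10 and 8.

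With 1 array left out, the lone array being assumed to vary like the other groups, the counts ran from 12 to 18 at day 4, 13 to 18 at day 6 and 11 to 19 at day 8. The 11 came without replicate 1 of day 0. Over all probe sets, 3943, 5011 and 5217 calls compared with ranges of 1403 to 4855, 1711 to 5825 and 1718 to 6740 when an array was left out, with the lowest without replicate 2 of day 0, and with 768 to 7680, 852 to 10046 and 911 to 11268 under the other alternatives. Leaving out a day 6 array gave 2 calls between sorted days over all probe sets, none of them members.

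With a replicate block the member counts were 18, 19 and 18, and 4838, 6180 and 6828 over all probe sets, and ETS2 241193_at was called at day 6 (limma adjusted p = 0.0194). Same-numbered arrays deviated together between sorted days (r of 0.61, 0.30 and 0.42 across probe sets, which are not independent) but not between sorted days and day 0 (-0.03, 0.02 and 0.03), and the labels do not say that a number marks a shared culture. The number of arrays limits which calls can be made, and signal near the array median limits ETV2, SPI1 and 3 FLI1 probe sets.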

Other observations

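Some markers of committed blood cells were higher in the sorted cells at day 8 than at day 0, and none was called between sorted days. SPI1 had log2 intensities of 6.10 and 6.11 at day 8. Of the erythroid markers, HBE1, the embryonic globin, had 13.13 and 12.66 at day 8, against 7.11 and 6.84 at day 0, a rise of 5.92 ± 1.22 (limma adjusted p = 0.0165). HBZ rose by 2.78 ± 0.75 and ALAS2, the haem synthesis enzyme of red cells, by 2.07 ± 0.51. At day 6 HBE1 had 7.59 on the first and 11.97 on the second array, so the 2 arrays of that day differed by over 4 log2 units.

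Platelet lineage genes were also high at day 8, mainly on 1 array. PF4 had 12.84 and 9.72 at day 8, against 7.25 and 7.5 at day 0, and rose by 3.91 ± 1.08 (limma adjusted p = 0.0453). ITGA2B, the platelet integrin CD41, had 9.72 and 9.19 at day 8, against 7.79 on both arrays at day 0, and rose by 1.66 ± 0.34. PPBP stood at 11.63 on the first day 8 array and 5.99 on the second, and MPO, a granule enzyme of neutrophils, at 9.80 and 6.86. On these 2 day 8 arrays the brightest probe sets of ERG and FLI1 differed by less than 0.5 log2 units. The part of committed blood cells in the levels of the ETS genes was not tested.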
